A study of Mus musculus with 6 samples.

Results

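Tandem 3' splice sites 3 nt apart are pairs of intron ends from which the same exon can start, so that the longer form of the exon keeps 3 bases that the shorter form loses. They were taken from a deposited table of alternative 3' splice sites by 2 conditions, a length difference of 3 nt between the exon forms and, averaged over 6 libraries, 20 reads or more. Neither condition uses how often either form was spliced. Of 4502 listed rows, 787 had this distance, and 559 of those reached the read minimum, beside 3713 rows of any distance that reached it. Rows that share both acceptors and differ in the upstream donor were joined by keeping the row with most reads, which left 528 acceptor pairs in 492 genes out of 3482 pairs in all. The label fits the sequence of the members, since 525 of the 528 pairs ended the 3 kept bases in AG, and the annotation held the short form's acceptor in 527 of them and the long form's in 528.

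The libraries were messenger RNA sequencing of small intestinal crypt cells of C57BL/6 mice aged 60 days, with 3 libraries from each genotype. WT mice were Ptbp1f/f without Cre, and PTBP1_KO mice were Ptbp1f/f;Vil-creER+/-, in which villin regulatory sequence drives an inducible Cre in the intestinal epithelium. All mice of both genotypes therefore carried floxed Ptbp1 alleles and all received tamoxifen, at 100 mg/kg on 2 days, with crypt cells isolated 20 h after the last injection. The sample titles number the libraries and do not say whether animals were pooled, so the spread between libraries may be partly technical.

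The splicing table sets a first set of 3 libraries against a second set of 3 and does not name the genotype of either. Differences below are therefore given as first set minus second set, with no direction by genotype. The level of the long form is the share of reads for the exon form that keeps the 3 bases, after dividing the reads of each form by its effective length, and runs from 0 to 1. The reads of the long form can include reads within the exon that cross no junction. The 6 libraries held from 154052 to 198283 reads over the 528 pairs, with the fewest in library 1 of the first set, and the median pair had between 118.5 and 168 reads in a library. Pooled over the libraries, the exact 95% binomial interval of a level had a median width of 0.0453 and at most 0.180. Reads carry no molecular identifiers, so these intervals cover counting error only.

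During splicing the 3' splice site is found downstream of the branch point, usually as the first AG after a stretch rich in C and U, which U2AF2 binds while U2AF1 reads the AG. The base before the AG matters, with C and U favoured over A, and G disfavoured. Where a pair of AGs lies in direct succession, a pattern called NAGNAG, either can be used, and in coding sequence the choice inserts or removes a single amino acid, exchanges amino acids at the junction or creates a stop codon, while the reading frame is kept. PTBP1 is an RNA-binding protein that binds stretches of C and U, often near 3' splice sites, where it can compete with U2AF2 and block the use of an exon. Its relative PTBP2 is the form typical of neurons, and PTBP1 is known to hold PTBP2 low through its splicing.

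The sequences below show how the bases at the pair go with the level of the long form. Each starts with 30 intron bases, continues with 6 capitals and ends with 15 exon bases, on the gene's strand and 5′ to 3′. The first 3 capitals end the intron of the long form and the last 3 are the bases that only the long form keeps. The bases were read from GENCODE M21 transcripts on mm10 whose exons run through the intron.
Spag9: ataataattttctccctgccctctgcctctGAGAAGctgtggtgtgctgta
Plcg1: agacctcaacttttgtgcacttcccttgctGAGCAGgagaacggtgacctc
Exosc2: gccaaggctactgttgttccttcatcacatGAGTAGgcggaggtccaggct
Srsf5: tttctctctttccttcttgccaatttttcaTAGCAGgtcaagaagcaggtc
Rnf10: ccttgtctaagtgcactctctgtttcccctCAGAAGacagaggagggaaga
Ctnnb1: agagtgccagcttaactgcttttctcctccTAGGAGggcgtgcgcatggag
The kept bases lie at chr11:94092812-94092814 (plus strand) in Spag9, chr2:160761736-160761738 (plus) in Plcg1, chr2:31676665-31676667 (plus) in Exosc2, chr12:80949717-80949719 (plus) in Srsf5, chr5:115242059-115242061 (minus) in Rnf10 and chr9:120957107-120957109 (plus) in Ctnnb1. In this order the pooled levels of the long form were 0.00373, 0.0138, 0.0320, 0.192, 0.895 and 0.996. The lowest 3 have GAG at the upstream site and Ctnnb1 has GAG at the downstream site. Spag9, which encodes a scaffold of JNK signalling, Plcg1, a phospholipase C, and Ctnnb1, which encodes beta-catenin, were chosen as examples after their values were seen.

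The next sequences show exons in which the 3 kept bases are TAG in frame, so that the long form would end its reading frame at the pair. They are laid out in the same way.
Galt: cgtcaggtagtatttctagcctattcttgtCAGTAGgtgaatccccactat
Uqcc1: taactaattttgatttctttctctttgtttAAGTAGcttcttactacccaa
Cep250: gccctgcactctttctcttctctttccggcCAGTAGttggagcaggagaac
These kept bases lie at chr4:41756344-41756346 (plus strand) in Galt, chr2:155910465-155910467 (minus) in Uqcc1 and chr2:155974250-155974252 (plus) in Cep250.

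The last set shows the spliced long form at coding pairs that differed between the sets of libraries, and at the pair of Ptbp2. Here 12 bases of the upstream exon come first, the 3 kept bases are in capitals and 15 bases of the exon follow.
Ttc27: tccaaagcaaagCAGaattttacagatgtg
Cdc6: caagacttcaagAAGgaagtaaaaggcttt
Nsd2: agtcttcggaagCAGagagagacaatcacc
Ptbp2: taagttttttcaAAGagatcacaaaatggc
These kept bases lie at chr17:74863334-74863336 (plus strand) in Ttc27, chr11:98911388-98911390 (plus) in Cdc6, chr5:33867574-33867576 (plus) in Nsd2 and chr3:119720458-119720460 (minus) in Ptbp2.

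Most tandem pairs were used at both sites. The pooled level of the long form had a median of 0.723 over the 528 pairs, with quartiles of 0.433 and 0.911. Both sites were in common use, defined as a level from 0.1 to 0.9, in 361 pairs, which is 68.4%. The long form took more than 0.9 in 139 pairs (26.3%) and less than 0.1 in 28 (5.30%). Among the 2954 pairs at other distances the median was 0.918, 815 pairs (27.6%) were at 0.1 to 0.9, 1548 (52.4%) were above 0.9 and 591 were below 0.1. The tandem pairs thus lay more in the middle of the scale and less at both of its ends than the other alternative 3' splice sites, as a description with no test.

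**Figure D1:**
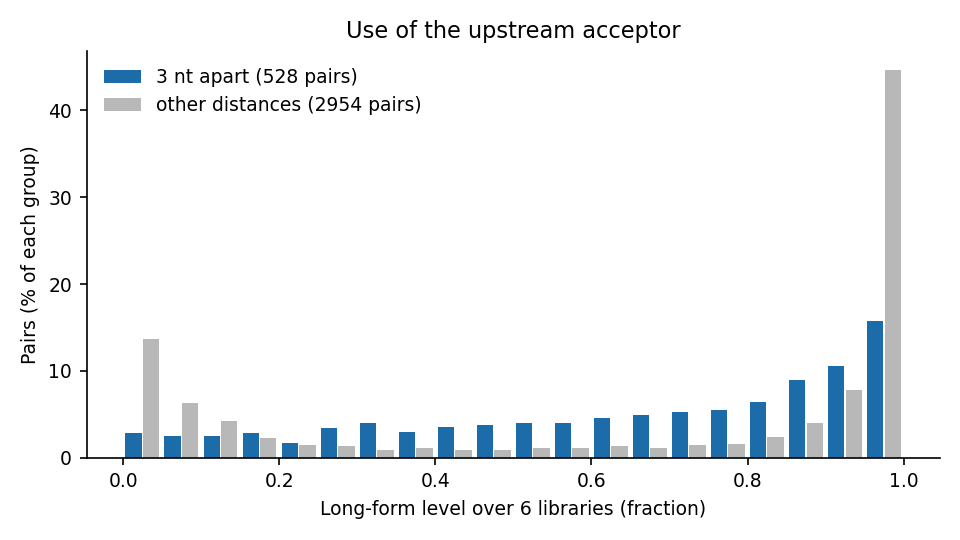
Histogram of the pooled level of the long form (0 to 1, horizontal axis), as the percent of pairs in each bin (vertical axis), for the 528 tandem pairs and the 2954 pairs at other distances. The tandem pairs spread over the middle of the scale, with 68.4% between 0.1 and 0.9, whereas 52.4% of the other pairs are above 0.9.

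A distance of 3 nt stood apart from its neighbours in this table. It was the most frequent distance among the 12 shortest, with 15.2% of all 3482 pairs, beside 25 pairs at 2 nt, 128 at 4 nt, 84 at 5 nt and 60 at 6 nt. None of the 25 pairs at 2 nt was at a level from 0.1 to 0.9. At 4 nt this held for 13.3%, at 5 nt for 21.4% and at 6 nt, which also keeps the frame, for 30.0%. The 2498 pairs 13 nt or more apart had 28.8%. At longer distances the forms differ more in length and in the reads that can be assigned to the long form, so the levels are not measured with the same precision at every distance.

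**Figure D2:**
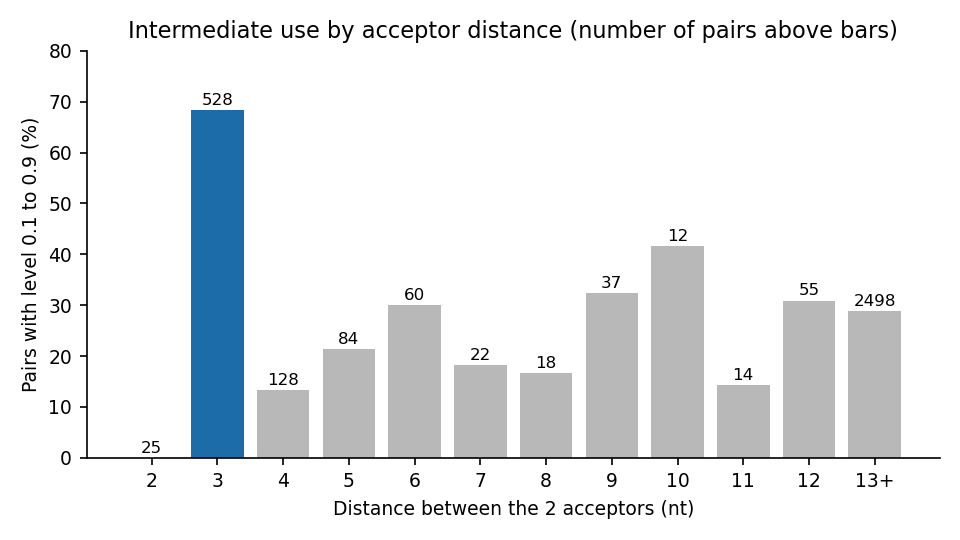
Percent of pairs with a long-form level from 0.1 to 0.9 (vertical axis) by the distance between the alternative 3' splice sites in nt (horizontal axis), with 13 nt or more as a single class and the number of pairs above each bar. The 3 nt class holds 528 pairs, of which 68.4% are in the middle range, and the 2 nt and 4 nt classes are at 0 and 13.3%.

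The median levels were close between libraries, and single pairs varied more. Over the 487 pairs with at least 20 reads in every library, the median level was 0.719, 0.715 and 0.715 in libraries 1 to 3 of the first set and 0.7, 0.707 and 0.705 in those of the second. Over all 528 pairs, the distance between the lowest and the highest of the 6 libraries had a median of 0.0983 and reached 0.646. For the 270 pairs with at least 100 reads in every library, its median was 0.0631. The widest of these 270 was in Engase, a cytosolic glycosidase of free N-glycans, with 0.566, 0.358 and 0.373 in the first set and 0.370, 0.306 and 0.325 in the second. Library 1 of the first set was above all the others there, and the remaining libraries of both sets overlapped.

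The 3 bases kept by the long form separated the pairs by level. CAG was kept in 360 pairs with a median level of 0.662, and 76.9% of them were between 0.1 and 0.9. TAG was kept in 56 pairs with a median of 0.675 and 73.2% in that range. AAG was kept in 96 pairs with a higher median of 0.911, and 43.8% were in the range. GAG was kept in 13 pairs with a median of 0.994, of which 12 were above 0.9. The upstream site was thus used the most where the downstream site ended in GAG, and next where it ended in AAG.

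The exception among the GAG pairs was Uchl5, a deubiquitinase of the proteasome, with a pooled level of 0.578 at 862 reads per library. Its libraries read 0.553, 0.542 and 0.620 in the first set and 0.611, 0.565 and 0.570 in the second, and the sets overlapped. Ctnnb1, which had 2502 reads per library, read from 0.994 to 0.998 in all 6 libraries. The smallest spread among the pairs with many reads was in Asah2, which encodes neutral ceramidase and keeps GAG, where 5 libraries were at 1 and the remaining one at 0.998. Uchl5 and Asah2 were named after their values were seen. The 3 pairs whose kept bases do not end in AG had low levels of 0.0958 in Eftud2 (ATG), 0.0203 in Prim1 (CAC) and 0.00612 in E2f5 (TAC).

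The 6 bases spanning both sites could be read in 121 pairs, where a transcript with an exon across the intron end exists. These had a median level of 0.727, beside 0.723 in the 407 pairs that could not be read. In 116 of them both triplets ended in AG. Where the base before the upstream AG was C, the median level was 0.796 in 74 pairs, and where it was T the median was 0.731 in 29 pairs. With A it was 0.288 in 10 pairs, and with G all 3 pairs, Spag9, Plcg1 and Exosc2, were below 0.1. The base before the downstream AG gave medians in another order, 0.393 with T in 12 pairs, 0.686 with C in 79, 0.938 with A in 22 and 0.996 with G in 3. Over all pairs, by the kept bases alone, the medians were 0.675 with TAG in 56 pairs and 0.662 with CAG in 360. The lower median with T was thus not seen over all pairs. Among the 12 pairs with T are Galt, Uqcc1, Cep250 and Exosc2, whose kept TAG is an in-frame stop codon.

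Taking both triplets, CAGCAG was the most frequent with 53 pairs and a median level of 0.716, and TAGCAG followed with 19 pairs and 0.627. CAGAAG had 0.954 in 16 pairs, and its lowest pair was at 0.581. Pairs with A upstream had lower medians, at 0.461 for AAGCAG in 6 pairs and 0.259 for AAGTAG in 4 pairs. Over all 10 pairs with A upstream the levels ran from 0.103 to 0.960. The same 6 bases still covered a wide span, since CAGCAG ran from 0.0788 in its lowest pair to 0.979 in its highest. TAGCAG ran from 0.192 in Srsf5, printed above, to 0.998.

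In 5 of the 121 pairs the upstream site was not preceded by AG, and 4 of these were below 0.1. The levels were 0.0170 in Gtpbp3 (TACAAG), 0.0203 in Prim1 (CATCAC), 0.0305 in Cyth2 (TTGCAG) and 0.0330 in Stat2 (CCTCAG). Cnbp, a nucleic acid-binding protein with zinc knuckles, was the exception with TTGAAG at chr6:87845321-87845323 (minus strand), a level of 0.276 and 984 reads per library. Its libraries read 0.280, 0.309 and 0.263 in the first set and 0.295, 0.236 and 0.271 in the second, and the sets overlapped. Cnbp was named after its value was seen.

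Intron sequence before the upstream site could be read for 104 of 528 tandem pairs and 905 of 2954 pairs at other distances. It was read only where an exon of some transcript covers it. The windows are thus a selected part of each group, and their comparison carries no test. Of the 30 bases before the upstream triplet, a median of 66.7% were C or T at tandem pairs and 63.3% at the others. In the 50 bases before it, on the gene's strand, a search was made for letters of the kind PTB proteins are known to bind. These were TCTT as the shortest, CTCTCT with repeated letters, TTTCT with a run of T before the C, and CTTTC with the run of T inside. At least 1 was present in 75 of the 104 tandem windows (72.1%) and in 453 of the 905 others (50.1%). Alone, the first of these was in 52.9% of tandem windows and 40.4% of the others, the second in 12.5% and 5.97%, the third in 36.5% and 17.7% and the last in 21.2% and 11.9%, and a stretch can match several. A match is a description of letters, not a binding site. The absolute difference between the sets in the authors' deposited table had a median of 0.018 both in the 75 pairs with a match and in the 29 without.

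Tandem pairs lay mostly in coding sequence. Of the 528 pairs, 497 (94.1%) were coding, 28 were in 5' untranslated sequence, 2 in 3' untranslated sequence and 1 in a transcript annotated for nonsense-mediated decay. A pair counted as coding if any protein-coding transcript held it in its coding part, so other transcripts may place it elsewhere. The same share was not counted for pairs at other distances. The kept bases formed a whole codon in 191 coding pairs (38.4%), followed the first base of a codon in 208 (41.9%) and the second in 98 (19.7%). The median level was 0.716, 0.728 and 0.734 in these classes, so the place in the codon went with little difference in level. Of the whole codons, 142 were CAG (glutamine), 31 AAG (lysine), 10 GAG (glutamate), 7 TAG (stop) and 1 ATG.

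The 7 pairs with an in-frame TAG all favoured the short form. Their pooled levels were 0.433 in Dph7, an enzyme of diphthamide synthesis, 0.390 in Galt, which turns over galactose phosphate, 0.378 in BC024139, 0.282 in Cep250, which links centrosomes, 0.146 in Uqcc1, an assembly factor of respiratory complex III, 0.0597 in Mkln1, which encodes muskelin, and 0.0320 in Exosc2, a subunit of the RNA exosome. The median of the 7 was 0.282. The 49 pairs that keep TAG without a stop codon had a median of 0.75, and 12 of them were above 0.9. Exosc2 also has G before its upstream AG and Uqcc1 has A, the bases with the lowest median levels above. The pairs of Exosc2 and Cep250 lie in an exon of another gene, so their reads may include that gene's. The part of these in the low levels was not tested.

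Galt had 283 reads per library and levels of 0.330, 0.415 and 0.358 in the first set and 0.460, 0.38 and 0.394 in the second. Uqcc1 had 222 reads and levels of 0.124, 0.149 and 0.134 against 0.184, 0.170 and 0.129. Cep250 had 93.2 reads and levels of 0.0755, 0.257 and 0.338 against 0.403, 0.237 and 0.275. The sets overlapped in all 3, and library 1 of the first set was the lowest in Cep250. None of the 7 pairs had an FDR below 0.8 in the authors' deposited table.

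Few tandem pairs differed between the sets of libraries. With an FDR below 0.05 and an absolute difference of at least 0.1 in the authors' deposited table, 4 of the 528 pairs (0.758%) were called, beside 1.01% of all 3482 pairs. With the FDR alone, 8 were called (1.52%), beside 2.87% of all pairs. These shares of the tandem pairs are near to or below the shares of the whole table. The tandem pairs had a median of 144 reads per library, beside 190 in all pairs, and the shares were not adjusted for depth. Among pairs at levels from 0.1 to 0.9, 4 of 361 tandem pairs (1.11%) and 22 of 815 others (2.70%) were called. In the authors' deposited table the absolute difference had a median of 0.02 in tandem pairs and 0.012 in all pairs, and 426 tandem pairs (80.7%) differed by less than 0.05. A difference of 0.1 or more at any FDR was listed for 28 (5.30%). The shares of all pairs below 0.05 and at 0.1 or more were not counted, so these counts have no background. The levels of the sets did not overlap between libraries in 28 of the 528 tandem pairs (5.30%), beside 8.5% of all pairs. These 28 include all 8 with an FDR below 0.05, which comes from the same reads, and 20 of the other 520.

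**Figure D3:**
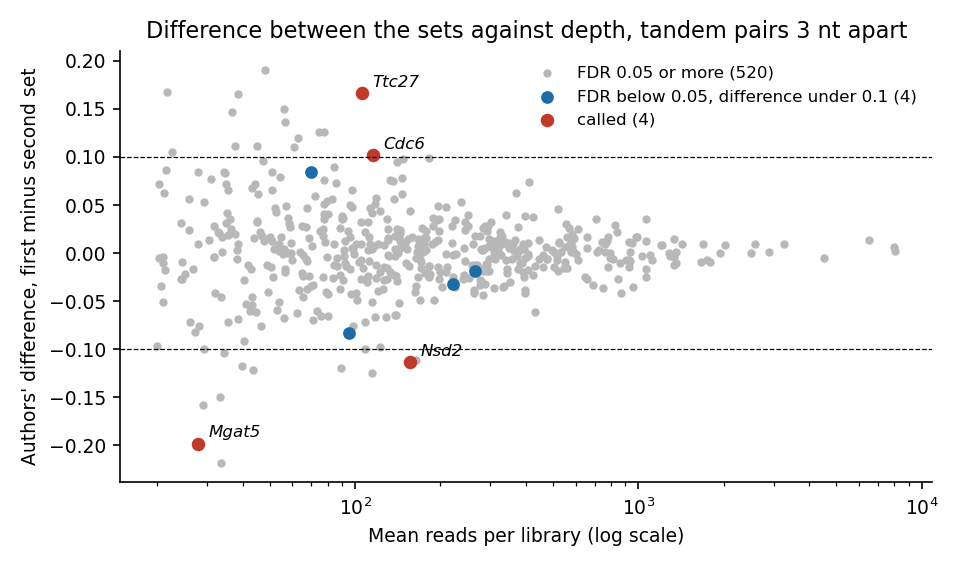
Difference of the long-form level, first set minus second set (vertical axis, from the authors' deposited table), against the mean reads per library (horizontal log axis) for the 528 tandem pairs, with the 4 called pairs named, the other 4 with an FDR below 0.05 in blue and dashed lines at differences of 0.1 and -0.1. Differences narrow as reads rise, and the called pairs have between 27.8 and 156 reads per library.

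In Ttc27, which encodes a protein of tetratricopeptide repeats, the long form adds a CAG codon. Its levels were 0.901, 0.912 and 0.936 in the first set and 0.682, 0.795 and 0.774 in the second. The first set was above the second in every library. The authors' deposited table gives a difference of 0.166 with an FDR of 7.25e-05, at 106 reads per library.

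Cdc6, which loads the replicative helicase onto origins of DNA replication, gains an AAG codon in the long form. Its levels were 0.817, 0.934 and 0.941 in the first set and 0.807, 0.778 and 0.800 in the second. The sets did not overlap. The difference was 0.102 with an FDR of 0.00831 in the authors' deposited table, at 115 reads per library. It lay close to the threshold of 0.1, and the difference between the set means was 0.0839 without library 2 of the first set, 0.0804 without library 3 of the first set and 0.0936 without library 2 of the second, beside 0.142 without library 1 of the first.

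Nsd2, a methyltransferase of histone H3, went the other way at an added CAG codon. Its levels were 0.704, 0.857 and 0.812 in the first set and 0.907, 0.888 and 0.916 in the second, with no overlap. The authors' deposited table gives a difference of -0.113 with an FDR of 0.0140, at 156 reads per library. Without library 1 of the first set, the lowest, the difference between the set means was -0.0695, which is also short of 0.1 in size.

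Mgat5, an enzyme that branches N-glycans, has its pair in the 5' untranslated region at chr1:127306634-127306636 (plus strand), with CAG kept. Its levels were 0.555, 0.797 and 0.843 in the first set and 0.915, 1 and 0.873 in the second, and the sets did not overlap. The difference was -0.198 with an FDR of 0.0213 in the authors' deposited table. This pair had 27.8 reads per library, with 12 in the shallowest library, and its pooled level of 0.817 has an exact 95% interval from 0.75 to 0.873. Without library 1 of the first set the difference between the set means was -0.109.

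A further 4 pairs had an FDR below 0.05 with smaller differences. Wnk2, a kinase of the WNK family, read 0.907, 0.938 and 0.984 in the first set and 0.875, 0.887 and 0.817 in the second, with a difference of 0.084 and an FDR of 0.0327 in the authors' deposited table. Reps1, an endocytic adaptor, read 0.848, 0.910 and 0.841 against 0.985, 0.926 and 0.938, with -0.083 and 0.0337 in the authors' deposited table. The sets did not overlap in either gene.

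Prim1, the catalytic subunit of DNA primase, and Cep55, which acts in the last step of cell division, were near the ends of the scale. Prim1 read 0.0156, 0 and 0.0138 in the first set and 0.0215, 0.0222 and 0.0439 in the second, with a difference of -0.019 and an FDR of 0.0432 in the authors' deposited table. Without library 3 of the second set the difference between the set means of Prim1 was -0.0120. Cep55 read 0.95, 0.951 and 0.951 against 0.994, 0.990 and 0.964, with -0.032 and 0.0447 in the authors' deposited table. The sets did not overlap in Prim1 or in Cep55. The 4 called pairs and these 4 hold 3 that were higher in the first set and 5 that were higher in the second.

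**Figure D4:**
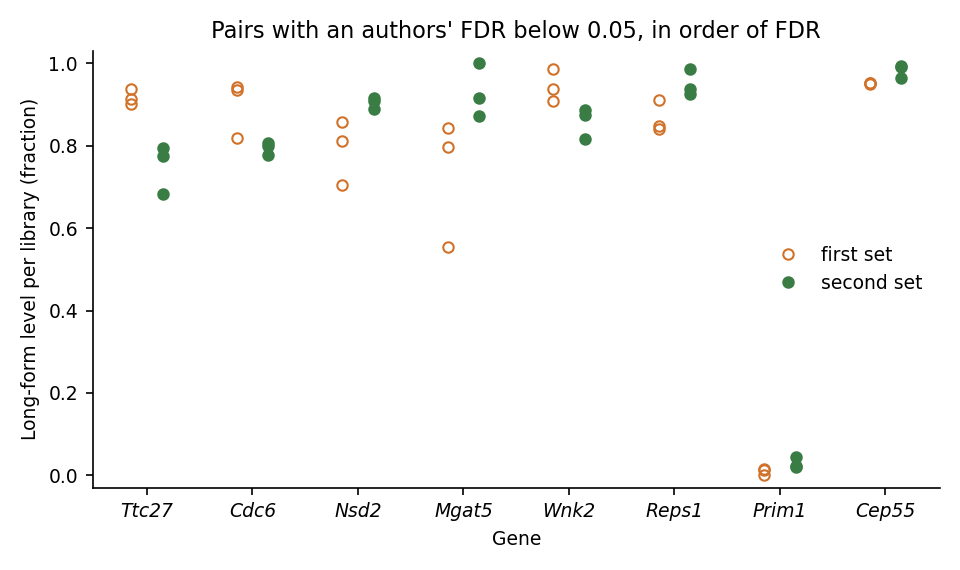
Long-form level (0 to 1, vertical axis) in each library of the first set (open points) and second set (filled points), 1 point per library, for the 8 tandem pairs with an FDR below 0.05 in the authors' deposited table, in order of FDR. The points of the sets do not overlap in any of the 8, and Mgat5 has the widest spread, from 0.555 to 1.

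The largest differences that were not called had wide spreads. Celsr1, a cadherin of planar cell polarity, read 0.860, 0.495 and 0.614 in the first set and 0.930, 0.782 and 0.910 in the second, with a difference of -0.218 and an FDR of 0.0589 in the authors' deposited table. Myo9b, an unconventional myosin, read 0.797, 0.759 and 0.774 against 0.518, 0.472 and 0.769 at chr8:71334313-71334315, with 0.19 and 0.171 in the authors' deposited table. The sets overlapped in both, and both had under 50 reads per library. Ecm1, an extracellular matrix protein, Fmnl1, a formin, and Celf3, an RNA-binding protein, had differences of 0.168, 0.165 and -0.158 with FDRs from 0.449 to 0.602 in the authors' deposited table, and their sets overlapped too.

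The pairs with most reads, where counting error is smallest, had a small spread between libraries. Srsf5, a splicing factor of the SR family, had the most reads, 8066 per library, and levels of 0.191, 0.197 and 0.192 in the first set and 0.191, 0.187 and 0.196 in the second. Rbm3, a protein induced by cold, had 7986 reads and levels of 0.522, 0.534 and 0.530 against 0.524, 0.514 and 0.530. In both genes the sets overlapped, and the 6 libraries lay within 0.02 of each other.

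Rbm8a, a core protein of the exon junction complex, had 2886 reads per library and levels of 0.529, 0.523 and 0.535 against 0.522, 0.524 and 0.537. Hnrnpc, which binds runs of U, had 2016 reads and levels of 0.738, 0.733 and 0.723 against 0.729, 0.719 and 0.721. The sets overlapped in both, and the differences in the authors' deposited table were 0.001 and 0.008, each with an FDR of 1.

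Gnb1, a beta subunit of heterotrimeric G proteins, had 6496 reads at a pair in the 3' untranslated region. Its levels were 0.276, 0.275 and 0.272 in the first set and 0.274, 0.258 and 0.25 in the second, which overlap, with an FDR of 1 in the authors' deposited table. Rnf10, a RING finger protein, came nearest to the FDR threshold among pairs above it. Its pair at chr5:115242059-115242061 read 0.924, 0.915 and 0.901 against 0.843, 0.903 and 0.890, with a difference of 0.035 and an FDR of 0.0552 in the authors' deposited table, and the sets overlapped.

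Ptbp2 itself has a tandem pair, which keeps AAG and splits a codon after its second base. Its levels were 0.534, 0.510 and 0.438 in the first set and 0.492, 0.391 and 0.565 in the second, and the sets overlapped. In the authors' deposited table the difference was 0.011 with an FDR of 1. The reads at the pair were 475, 615 and 724 in the first set and 181, 177 and 263 in the second, so that the number of reads differed between the sets while the shares of the forms overlapped. Ing4, a chromatin reader of the ING family and a known NAGNAG gene, had TAGAAG at chr6:125047479-125047481 (plus strand) and a level of 0.0924. Its libraries read 0.0830, 0.126 and 0.0638 against 0.0887, 0.0780 and 0.123, and the sets overlapped. Igf1r, Stat3, Atn1, Pax3, Pax7, Clk1, Ptbp1, Ptbp3, Numb and Mdm2, which had been listed with these, had no tandem pair at the read minimum.

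At the read minimum, the members just inside were Krba1 with 20.0 reads per library and a level of 0.881, Pax4 with 20.3 reads and 0.95 and Zfp395 with 20.3 reads and 0.602. Just outside were Pik3cd with 19.7 reads and 0.117 and Carmil3 with 19.5 reads and 0.610.

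For 27 of the pairs the table held more than 1 row, each listing a different upstream donor for the same pair. Besides the rows with most reads there were 31 rows with another donor, and 25 of these had a higher level of the long form than the most-read row of their pair. In 11 the level was higher by over 0.1, and in 1, Phf21a, it was lower by over 0.1, with 0.256 beside 0.724. A level above 0.95 was listed in 12 of the 31 rows and in 5 of the 27 most-read rows.

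In Gnb1 the level was 0.267 with the main donor and 0.994 with a donor 2055 nt away, where 60.8 reads per library were assigned to the long form and 0.333 to the short form. In Rbm3 it was 0.526 with the main donor and 0.996 with a donor 915 nt away, with 88.7 and 0.333 reads. In Srsf5 it was 0.192 and 0.667, and in the other pair of Rnf10, at chr5:115249171-115249173, it was 0.120 and 0.994. In Ing4 a donor 9 nt away gave 0.0331 beside 0.0924. The table counts reads within the exon as well as across junctions, and a read that reaches the 3 bases without crossing a junction carries no donor. Such reads can also enter the long form of the most-read rows, and so the levels given throughout. Their part in the levels was not tested, and these examples were chosen after their values were seen.

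**Figure D5:**
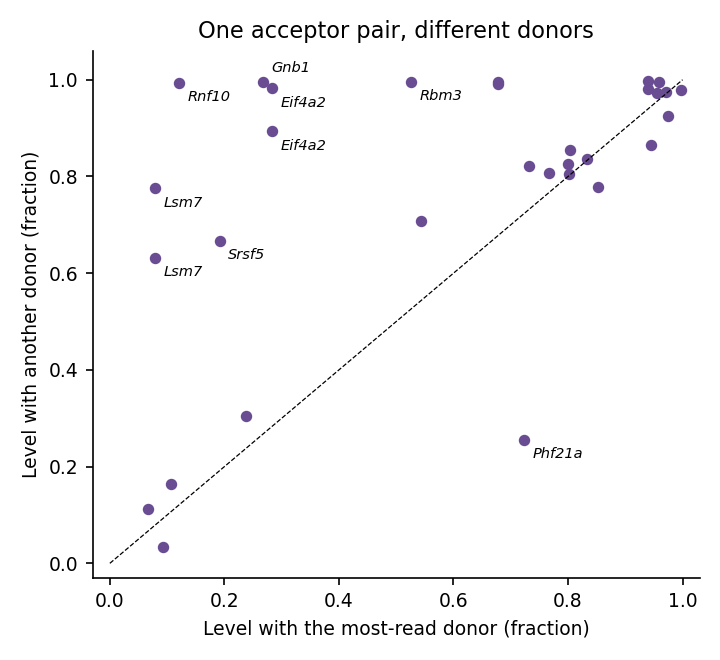
Long-form level of the 31 rows with a less-read donor (vertical axis) against the level of the most-read row of the same acceptor pair (horizontal axis), both from 0 to 1, with a diagonal at equal levels. Above the diagonal lie 25 of the 31 rows, and Gnb1 and Rbm3 lie near the top.

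For 1 pair the call depended on which row was kept. Ankrd17, which encodes an ankyrin repeat protein, was not called at its most-read row, with a difference of -0.049 and an FDR of 1 in the authors' deposited table. With its other donor the levels were 0.880, 0.75 and 0.704 in the first set and 0.924, 1 and 0.860 in the second, and the sets overlapped. That row had a difference of -0.15 and an FDR of 0.0137 in the authors' deposited table, at 49.8 reads per library. Counted over rows, 5 of 559 tandem rows (0.894%) were called, beside 1.1% of all rows.

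Tandem pairs within a gene were used to different extents. There were 460 genes with 1 pair, 28 with 2 and 4 with 3. In 7 of the 32 genes with several pairs the levels lay within 0.1 of each other, and in 5 they spanned more than 0.5. Tcf3, a transcription factor of the E protein family, had levels of 0.974, 0.510 and 0.331 at its 3 pairs. Ncor1, a nuclear receptor corepressor, had 0.759, 0.603 and 0.289, and Foxp1, a forkhead transcription factor, had 0.727, 0.952 and 0.878. Rnf10 had 0.895 at one pair and 0.120 at the other.

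At the level of whole genes, the authors' table gives 1 FPKM value per genotype, that is fragments scaled to transcript length and library size, so it carries no spread between libraries. In these bulk samples, fewer cells of a type and less RNA per cell cannot be told apart. Ptbp1, the targeted gene, had 230.0 FPKM in WT and 122.8 in PTBP1_KO, which is 53.4% of WT, with a q-value of 0.0125 in the authors' deposited table. Ptbp2 had 19.0 and 35.9 FPKM, with p = 0.00135 and a q-value of 0.156 from Cuffdiff in the authors' deposited table.

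Of the genes with a tandem pair, 490 had a Cuffdiff test and 1 passed a q-value below 0.05, which is 0.204% beside 0.537% of all 15460 tested genes. This gene was Matk, a kinase that inhibits Src family kinases, with 12.2 FPKM in WT and 7.06 in PTBP1_KO, a log2 fold change of -0.79 and a q-value of 0.0305 in the authors' deposited table. Its tandem pair read 0.296, 0.470 and 0.232 in the first set and 0.161, 0.224 and 0.164 in the second. The sets did not overlap, and the difference of 0.15 had an FDR of 0.123 in the authors' deposited table. On the scale of log2((PTBP1_KO + 1)/(WT + 1)) the genes with a tandem pair had a median of 0.00, beside 0.02 for all tested genes.

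None of 32 factors that find the 3' splice site or act in the second step of splicing passed the q-value threshold in the authors' Cuffdiff test, and none had an unadjusted p below 0.05. Of all 15460 tested genes 0.537% passed the threshold, so lists this short would mostly hold none. An unadjusted p below 0.05 in Cuffdiff was found for 12 of the 490 tested genes with a tandem pair. The share of all tested genes at this p was not counted, so such counts have no background here or for the markers below. The median log2 ratio of the 32 factors was 0.02, the same as that of all tested genes. In PTBP1_KO 19 of them were higher and 13 lower without passing the test, beside 8455 higher and 7005 lower of all tested genes. U2af1, which reads the AG, had 142 FPKM in WT and 134 in PTBP1_KO, and U2af2, which binds the pyrimidine tract, had 139 and 137. Slu7 and Prpf18, factors of the second step known to act in the choice of the 3' splice site, had 19.7 and 20.0 FPKM and 12.2 and 13.3 FPKM. Cwc22, Rbm39 and Sf3b2 of this list hold a tandem pair themselves. Of 14 genes of nonsense-mediated decay, the pathway that removes transcripts with early stop codons, none passed the q-value threshold or an unadjusted p below 0.05 in the Cuffdiff test, and the median log2 ratio was -0.08.

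The labelled cell type was checked against markers. All 8 epithelial markers were present at 227 to 2011 FPKM in WT and none of them passed the test. The 4 crypt markers were present too, with Olfm4 at 618 and 578 FPKM, Mki67 at 80.9 and 72.8, Ascl2 at 7.64 and 7.21 and the stem cell marker Lgr5 at 6.78 in both WT and PTBP1_KO, and none passed the test. Markers of enterocytes, the main cells of the villi, were also high, with Apoa1 at 2580 and 2914 FPKM and Fabp1 at 2551 and 2470, and none of the 3 passed the test.

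Markers of other cell types of the epithelium and outside it were summed for WT and PTBP1_KO. Among 3 Paneth cell markers 2 passed the test as higher in PTBP1_KO, with sums of 2059 FPKM in WT and 3492 in PTBP1_KO. Most of these sums came from Lyz1, at 1471 and 2470 FPKM, which did not pass the test. None of the 3 tuft cell markers passed it, with lower values in PTBP1_KO for all 3, an unadjusted p below 0.05 in Cuffdiff for 2, and sums of 34.0 and 23.6 FPKM. Dclk1 of the tuft list holds tandem pairs itself, with long-form levels of 0.957 and 0.994. The 3 goblet and 3 enteroendocrine markers had no member past the test, with sums of 2980 and 2863 FPKM and of 189.7 and 218.8 FPKM. Of 8 markers of T cells and other immune cells, 7 were tested, all 7 had higher values in PTBP1_KO and 2 passed the test, and the summed level was 87.9 and 152.6 FPKM. The 7 markers of stroma, muscle and vessel summed to 6.69 and 7.69 FPKM and the 2 nerve markers to 0.369 and 0.389. Of the 5 tested stroma, muscle and vessel markers, 3 were higher in PTBP1_KO, with Vim at 4.90 and 6.28 FPKM. The other 2 were lower, Col1a1 at 0.252 and 0.0997 FPKM and Col3a1 at 0.749 and 0.328. Both had an unadjusted p below 0.05 in Cuffdiff, and neither passed the test. No marker was at 0, and the part of these cell types in the levels of the tandem pairs was not tested.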

How the data were processed

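Poly-A RNA of 6 libraries was sequenced after TruSeq stranded preparation, per the labels' protocols. The submitters' processing notes name mm10 and the tools STAR 2.6.1d, Trimmomatic 0.38, bcl2fastq 2.20, Cuffdiff and Cufflinks. The deposited splicing table gives, per the file headers, whole-number read counts of each exon form for 3 libraries in each of 2 sets, form lengths, the authors' p-value and FDR, and a difference score of the mean levels. Levels were recomputed as reads over form length (147 for the long form, 144 for the short), and matched the deposited levels to within 0.0005. The version of the splicing tool is not given in the sources used here. Gene values are FPKM, a log2 fold change and a p-value and q-value per gene, all made by the authors, per the file headers. The depth behind the FPKM values is unknown.

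Because no header ties a set to a genotype, no test of the libraries was run and the authors' FDR was used. A pair was called at an FDR below 0.05 and an absolute difference of at least 0.1, and a gene at a q-value below 0.05. A log2 ratio of FPKM used a pseudocount of 1. Levels pool the 6 libraries with exact binomial intervals. Sequence, frame and place come from GENCODE M21 transcripts on mm10, and intron bases were read only where another transcript's exon covers them, in place of the planned reading from the genome. Coordinates are 1-based.

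The named pairs are all called ones, then the 5 others with the smallest FDR, the 5 with the largest difference, the 5 with most reads at 0.25 to 0.75, the 3 with most and the 3 with fewest reads, the 2 just outside, those with an in-frame stop codon and a preset list. Of the pairs so named, 1 is not reported here. All other pairs, such as those of Engase, Tcf3 or Eftud2, were named after their values were seen. Members and lists were chosen with earlier results of these data known. Alternatives were other thresholds and minimums, joining rows or not, the mean of library levels and leaving out each library. Levels were recomputed on simulated reads at the pooled depths of the 528 pairs, with a median absolute error of 0.00599. The simulation used the same formula with binomial counting only. It held no spread between libraries and no wrongly assigned reads, so it does not test for these. Scripts ran on Python 3.11.15 with pandas 2.3.3, scipy 1.17.1, matplotlib 3.10.9 and numpy 2.4.6.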

Additional observations from a re-analysis of the deposited data

How the results depend on the processing

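The 4 called tandem pairs became 0 at a difference of at least 0.2, 8 at the FDR alone and 9 at a mean of 10 reads, which leaves 588 pairs. The count was 6 at a difference of 0.05 and 3 at a mean of 50 reads or at 20 reads in every library, where Mgat5 drops out. The median level was 0.710 at a mean of 50 reads and 0.710 at 20 reads in every library, beside 0.723, and the median with C before the upstream AG was 0.776 at a mean of 50 reads, beside 0.796. The 1 gene called, Matk, became 0 at a q-value below 0.01 and 0 at a log2 fold change of at least 1. Leaving out each library in turn gave medians from 0.722 to 0.727 and from 357 to 362 pairs at 0.1 to 0.9. Of 224 levels of 32 named pairs under the alternatives, 220 stayed within the counting interval, and Celsr1, Ptbp2, Rbm3 and Rnf10 each left it once. These alternatives reuse most or all of the same reads, so this count says little about how stable the levels are. The differences of the set means without 1 library were chosen after seeing the data, carry no test, and moved by over 1.5 times in Nsd2, Mgat5 and Prim1, and those of Cdc6 and Nsd2 fell short of 0.1 in size without some libraries. No paired analysis was possible because the library columns carry neither genotype nor replicate label and the gene table has 1 value per genotype. Depth limits the pairs outside the 487 that had 20 reads in every library.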
